A study of Mus musculus with 6 samples.

Results

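The genes described here are 40 symbols that mark macrophages and neutrophils, the phagocytes of the innate immune system, followed across RNA from the olfactory epithelium of Emx2 mutant and wildtype mouse embryos. Each member was taken from the transcript cluster, the array's unit of 1 gene, whose annotation names that gene alone. Of the 40 symbols, 36 had such a cluster. Emr1 is an earlier symbol of Adgre1 and was measured under that name, Mpeg1 and Ltb4r1 had no cluster of their own in the annotation used here, and Lyz2 was found only in clusters shared with Lyz1. The array as a whole gave 16661 tested clusters, of which 14945 named a single gene.

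The study compared Emx2 knockout embryos with Emx2 homozygous wildtype embryos, both collected at ED18.5. The gene Emx2 codes for a homeodomain protein that regulates transcription in the developing forebrain, urogenital system and olfactory epithelium. Each genotype was represented by 3 arrays, and each array carried a pool of RNA from 3 animals, so that 9 animals stood behind each genotype and the spread between arrays is a spread between pools. The sources used here do not give the strain or the way in which the Emx2 allele was disrupted. The tissue was dissected, not sorted, so it can hold cells of the underlying lamina propria, vessels, bone and muscle. Values are log2 signals made by the authors with RMA, a method that corrects background, equalises the distributions of the arrays and summarises the probes of a cluster. A difference of 1 on this scale is a 2-fold change.

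The Emx2 cluster itself read 8.38, 8.33 and 8.39 in the arrays labelled knockout, against 8.37, 8.59 and 8.36 in the wildtype arrays. The groups overlapped, and since its probes, read together as 1 value, may lie outside the disrupted part of the gene, it checks nothing about the labels. Genotypes are therefore named as labelled. The pools also differed in sex. The Y-linked Eif2s3y read 3.30, 7.78 and 8.89 in knockout-labelled replicates 1 to 3, against 3.55, 8.14 and 3.69 in wildtype replicates 1 to 3.

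Macrophages enter embryonic tissues early and persist there as resident cells that clear dying cells and debris. Their survival depends on the growth factor receptor Csf1r, and their identity on the transcription factor PU.1, which is encoded by Spi1. They recognise targets through Fc receptors and complement and signal through adaptor proteins with an activation motif, called an ITAM. In the adult olfactory epithelium macrophages are known for removing olfactory neurons that die in the course of normal turnover. Neutrophils are short-lived blood cells that carry ready-made granules of proteases, peroxidase and antimicrobial peptides, and in late embryos they reach tissues with the blood.

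The macrophage and neutrophil genes differed little between genotypes. None of the 36 measured members passed the test in either direction (limma, adjusted p at or under 0.05), against 1.90% lower and 0.144% higher among all tested clusters. At an unadjusted p under 0.05, 3 members were lower, Coro1a, Ngp and Ccl4, and 0 were higher, against a background of 8.33% lower and 1.81% higher clusters. The log2 differences, knockout-labelled minus wildtype, ran from -0.40 for Ngp to 0.31 for Cd68. Their median was -0.04, as it was over all tested clusters. A negative difference was found for 23 of the 36 members, beside 61.6% of all clusters.

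The pools set how closely these differences could be measured. The 95% interval of the difference lay within a 1.5-fold change in either direction for 28 members and within a 2-fold change for 34. The exceptions to the 2-fold bound were S100a8 and S100a9, whose levels varied widely between pools of the same genotype. For 33 of the 36 members the values of the more widely spread genotype spanned more than the difference between genotypes. Levels of different clusters depend on their probes and are not set against each other here. Since whole tissue was measured, fewer phagocytes and less RNA per phagocyte cannot be told apart.

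**Figure D1:**
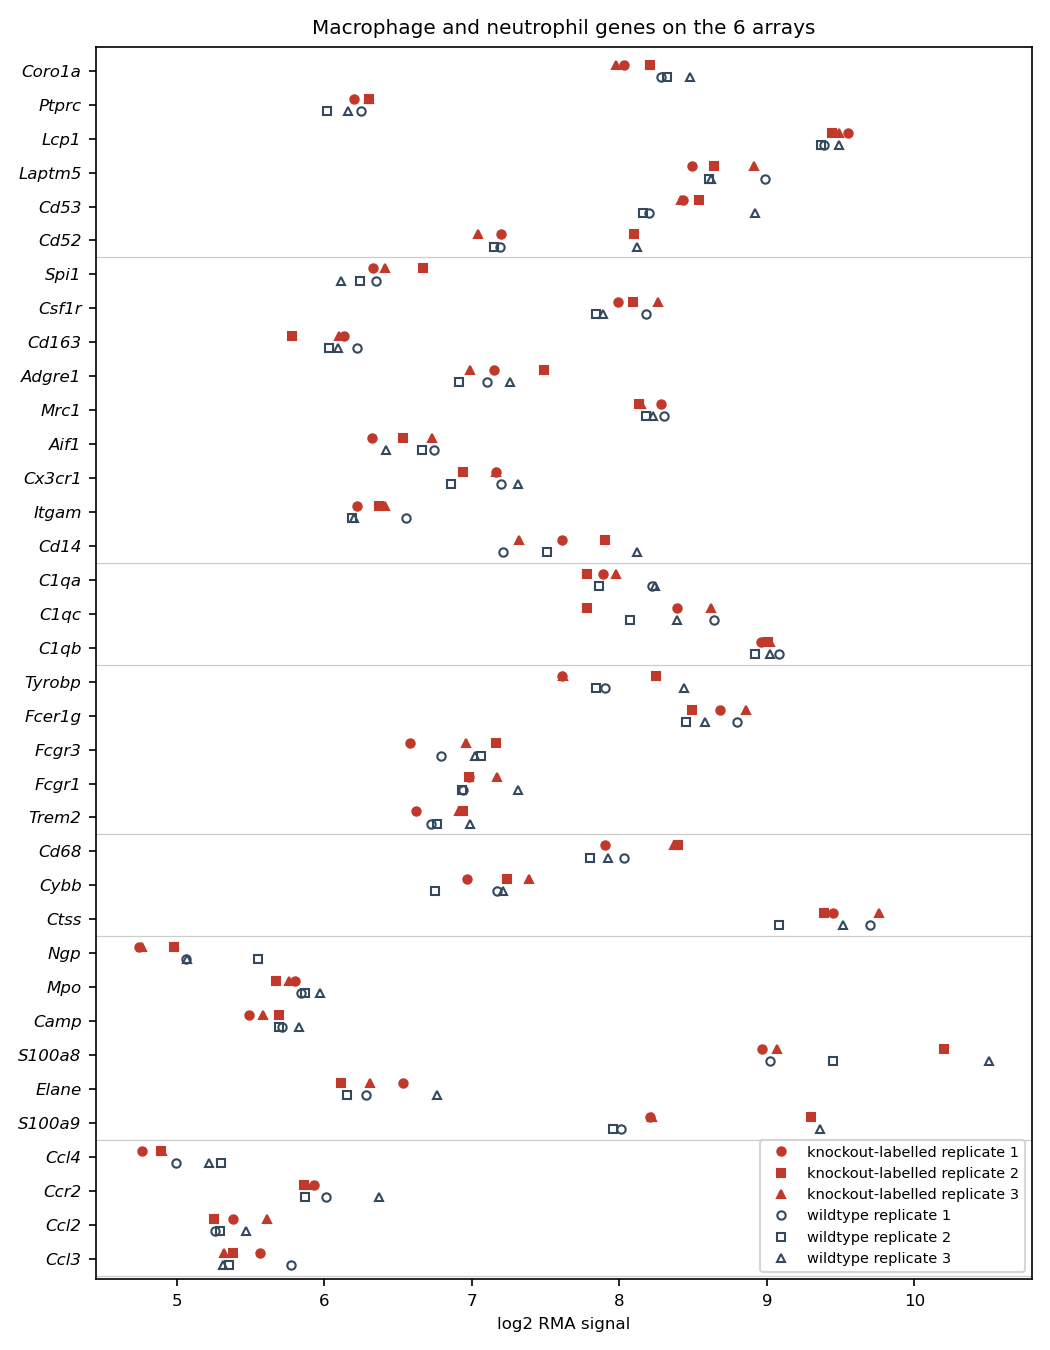
Log2 RMA signal of each of the 36 measured genes on the 6 arrays, grouped by role. Filled red symbols are the knockout-labelled arrays, drawn above the open symbols of the wildtype arrays, and each symbol is 1 pool of 3 animals. The genotypes overlap for 31 genes, and S100a8, S100a9 and Cd52 are spread most widely.

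**Figure D2:**
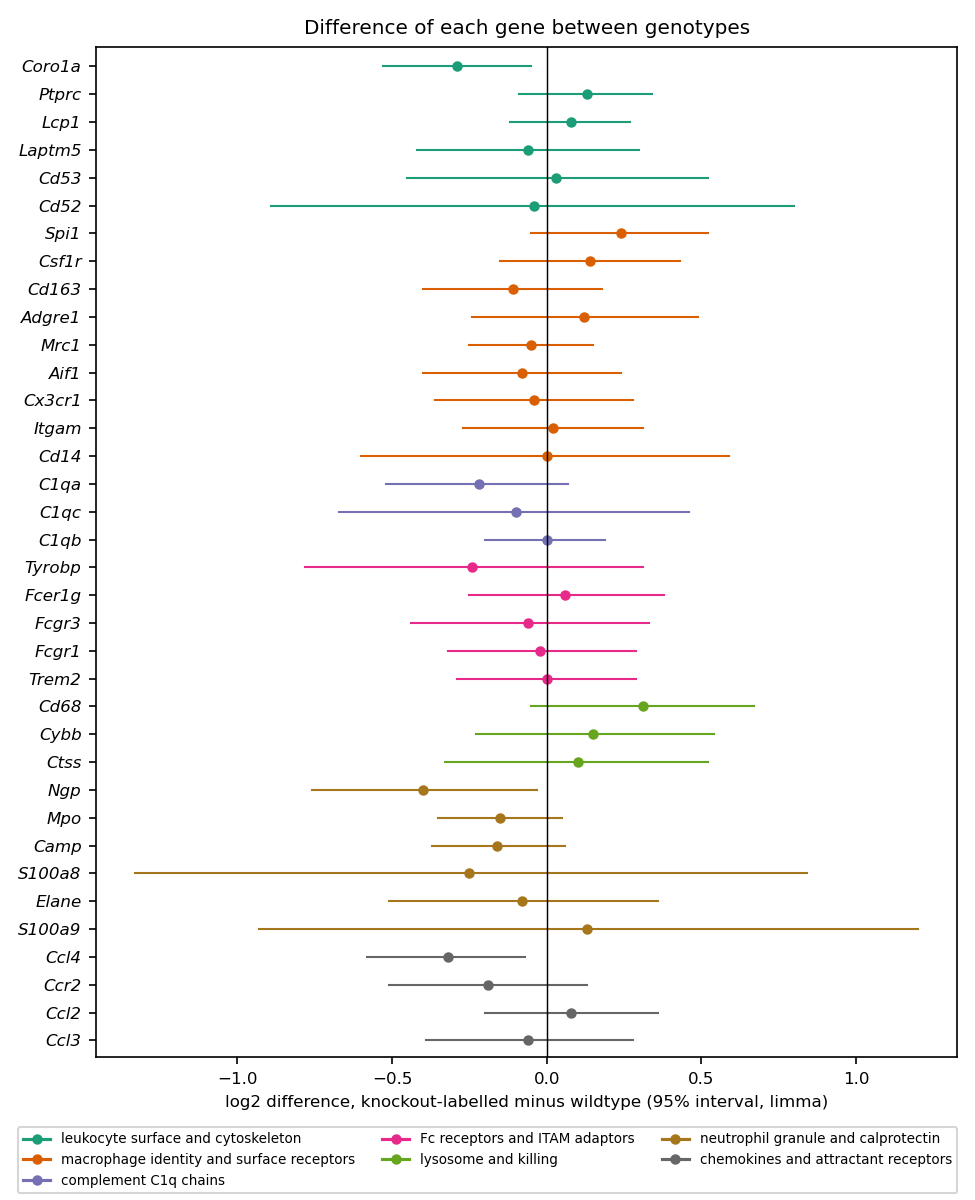
Log2 difference of each gene, knockout-labelled minus wildtype, as a point with its 95% interval from limma, coloured by role. The intervals of Coro1a, Ngp and Ccl4 lie below 0, no adjusted p is under 0.333, and the widest intervals are those of S100a8 and S100a9.

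Genes that define the macrophage lineage were considered first. Csf1r, the receptor for the macrophage growth factors Csf1 and Il34, read 7.99, 8.09 and 8.26 in the knockout-labelled arrays and 8.18, 7.84 and 7.89 in the wildtype arrays. The groups overlapped, and the difference was 0.14 (SE 0.12; limma adjusted p = 0.823). Spi1, which encodes PU.1, read 6.33, 6.67 and 6.41 in the knockout-labelled arrays and 6.35, 6.24 and 6.11 in the wildtype arrays. Only wildtype replicate 1 reached into the range of the knockout-labelled arrays, but the difference of 0.24 (SE 0.12) did not pass (limma adjusted p = 0.611). The other 7 measured members of this group were Adgre1, the classical surface marker of mature mouse macrophages, the integrin chain Itgam, the chemokine receptor Cx3cr1, the mannose receptor Mrc1, the haemoglobin scavenger receptor Cd163, the actin-binding protein Aif1 and the endotoxin co-receptor Cd14. Their differences ran from -0.11 for Cd163 to 0.12 for Adgre1. Mrc1 was the steadiest of them, with 8.28, 8.13 and 8.15 in the knockout-labelled arrays against 8.30, 8.18 and 8.23 in the wildtype arrays.

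The 3 chains of C1q, C1qa, C1qb and C1qc, assemble into the recognition molecule of the classical complement pathway and are made largely by tissue macrophages. C1qa read 7.89, 7.78 and 7.98 in the knockout-labelled arrays and 8.22, 7.86 and 8.24 in the wildtype arrays. Its difference was -0.22 (SE 0.13; limma adjusted p = 0.673), and wildtype replicate 2 lay among the knockout-labelled arrays. C1qb hardly varied, with 8.96, 9.01 and 9.02 in the knockout-labelled arrays against 9.08, 8.92 and 9.02 in the wildtype arrays, and its difference was 0.00 (95% interval -0.20 to 0.19). C1qc read 8.39, 7.78 and 8.62 in the knockout-labelled arrays against 8.64, 8.07 and 8.39 in the wildtype arrays, and was lowest in replicate 2 of both genotypes. Its difference was -0.10 (SE 0.24; limma adjusted p = 0.952).

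Fc receptors bind antibody-coated targets, and Fcer1g and Tyrobp are the adaptor proteins through which many phagocyte receptors signal. Tyrobp read 7.61, 8.25 and 7.62 in the knockout-labelled arrays and 7.90, 7.84 and 8.44 in the wildtype arrays. The highest array of each genotype stood apart from the other two, and the difference was -0.24 (SE 0.23; limma adjusted p = 0.849). Fcer1g differed by 0.06, the Fc receptors Fcgr1 and Fcgr3 by -0.02 and -0.06, and Trem2, a lipid-sensing receptor that signals through Tyrobp, by 0.00. None of these 4 had an adjusted p under 0.950 (limma).

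Of the genes of digestion and killing, all 3 that were measured had a positive difference. Cd68, a glycoprotein of macrophage lysosomes, read 7.90, 8.40 and 8.37 in the knockout-labelled arrays and 8.03, 7.80 and 7.92 in the wildtype arrays. Knockout-labelled replicates 2 and 3 lay above every wildtype array and replicate 1 lay among them, and the difference was 0.31 (SE 0.15; limma adjusted p = 0.599). Cybb, the membrane subunit of the phagocyte oxidase, differed by 0.15 and the lysosomal protease Ctss by 0.10, with overlapping groups. The lysozyme gene Lyz2 could not be separated from Lyz1, and their shared clusters differed by 0.05 and -0.12 (limma adjusted p = 0.982 and 0.962).

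Among the genes that all white blood cells share, Coro1a was the one with the smallest p. Coro1a, an actin regulator of leukocytes, read 8.03, 8.21 and 7.98 in the knockout-labelled arrays, against 8.28, 8.32 and 8.48 in the wildtype arrays. The groups did not overlap, but the difference of -0.29 (SE 0.10) did not pass over all clusters (limma adjusted p = 0.356). Ptprc, the phosphatase that marks all leukocytes, differed by 0.13 and Lcp1, an actin-bundling protein, by 0.08. The lysosomal membrane protein Laptm5 differed by -0.06, the tetraspanin Cd53 by 0.03 and the surface glycopeptide Cd52 by -0.04. Coro1a and Ptprc thus lay on opposite sides of 0.

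The chemokines Ccl2, Ccl3 and Ccl4 attract monocytes and other leukocytes, and Ccr2 is the receptor through which Ccl2 draws monocytes from the blood. Ccl4 read 4.76, 4.89 and 4.90 in the knockout-labelled arrays and 4.99, 5.30 and 5.22 in the wildtype arrays. The groups did not overlap, and Ccl4 had the smallest p of all members, yet its difference of -0.32 (SE 0.11) did not pass (limma adjusted p = 0.333). Ccr2 differed by -0.19, Ccl2 by 0.08 and Ccl3 by -0.06, each with overlapping groups.

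Neutrophil genes fell into proteins of the granules and the calprotectin pair. Ngp, a cystatin-like protein of neutrophil granules, read 4.74, 4.98 and 4.76 in the knockout-labelled arrays and 5.06, 5.55 and 5.07 in the wildtype arrays, a difference of -0.40 (SE 0.15; limma adjusted p = 0.441). The groups did not overlap, and wildtype replicate 2 was the highest array. Without that array the difference was -0.23, and C1qa and S100a8 were lower (-0.35 each), while with the values quantile-normalized again it was -0.24. Mpo, the peroxidase of the granules, differed by -0.15, Camp, the precursor of an antimicrobial peptide, by -0.16, and the protease Elane by -0.08. For Mpo and Camp all knockout-labelled arrays were below all wildtype arrays, by small margins. Counting either direction, the genotypes did not overlap for 5 of the 36 members, Coro1a, Ngp, Mpo, Camp and Ccl4, beside 15.5% of all clusters. All 5 were lower in the knockout-labelled arrays, and 0 were higher, beside 3.51% of all clusters. All but Coro1a were dim, with a mean signal not above the 25th percentile of the tested clusters. With the values quantile-normalized again, the differences of Mpo and Camp were -0.03 each, that of Ccl4 was -0.16 and that of Coro1a was -0.24.

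S100a8 and S100a9 encode the 2 subunits of calprotectin, a calcium- and metal-binding complex that fills the cytoplasm of neutrophils and is also made by monocytes. S100a8 read 8.97, 10.20 and 9.07 in the knockout-labelled arrays, against 9.02, 9.45 and 10.51 in the wildtype arrays. S100a9 read 8.21, 9.30 and 8.22 in the knockout-labelled arrays, against 8.01, 7.96 and 9.36 in the wildtype arrays. Both were high in knockout-labelled replicate 2 and wildtype replicate 3 and low elsewhere, except that S100a8 was intermediate in wildtype replicate 2. The span over the 6 arrays was 1.54 for S100a8 and 1.40 for S100a9, the widest of all members, and most of it lay within genotypes. The genotype difference was -0.25 (95% interval -1.33 to 0.84) for S100a8 and 0.13 (95% interval -0.93 to 1.20) for S100a9. Its size hung on these 2 pools, since for S100a8 it was -0.64 without knockout-labelled replicate 2 and 0.18 without wildtype replicate 3, and for S100a9 it was -0.23 and 0.59.

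The promoters of the calprotectin pair are shown because these genes moved together across pools, that of Ngp because it had the lowest difference of all members over the 6 arrays, and those of C1qb and C1qc because these neighbouring macrophage genes varied unequally. Each is the 250 bases before the start of the gene in the RefSeq table of the GRCm38.p6 build, written 5′ to 3′ on the gene's strand. Capitals mark matches to GAGGAA, the core bound by PU.1, and to TTGCNNAA, a form of the site of the C/EBP factors that drive granulocyte genes, both searched on both strands, and to TATAAA, searched on the gene's strand. No marked match overlapped another.
S100a8, chr3:90668821-90669070, + strand: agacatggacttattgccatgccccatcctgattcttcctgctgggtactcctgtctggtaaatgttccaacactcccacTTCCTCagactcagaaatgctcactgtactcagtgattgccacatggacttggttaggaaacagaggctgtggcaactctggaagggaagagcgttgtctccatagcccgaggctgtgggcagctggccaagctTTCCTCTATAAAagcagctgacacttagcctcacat
S100a9, chr3:90695722-90695971, - strand: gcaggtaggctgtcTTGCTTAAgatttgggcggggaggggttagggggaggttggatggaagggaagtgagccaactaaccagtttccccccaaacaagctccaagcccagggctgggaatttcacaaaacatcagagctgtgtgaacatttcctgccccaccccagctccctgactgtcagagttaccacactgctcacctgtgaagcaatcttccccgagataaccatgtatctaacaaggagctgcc
Ngp, chr9:110419558-110419807, + strand: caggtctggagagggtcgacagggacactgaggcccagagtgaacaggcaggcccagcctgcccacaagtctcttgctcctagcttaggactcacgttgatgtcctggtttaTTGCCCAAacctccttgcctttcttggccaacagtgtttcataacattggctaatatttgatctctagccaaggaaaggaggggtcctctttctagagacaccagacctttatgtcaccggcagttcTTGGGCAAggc
C1qb, chr4:136886201-136886450, - strand: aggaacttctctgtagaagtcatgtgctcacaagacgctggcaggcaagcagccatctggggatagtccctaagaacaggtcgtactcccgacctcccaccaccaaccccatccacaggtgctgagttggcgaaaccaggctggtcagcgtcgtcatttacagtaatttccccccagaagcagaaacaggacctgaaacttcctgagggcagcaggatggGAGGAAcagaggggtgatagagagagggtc
C1qc, chr4:136892915-136893164, - strand: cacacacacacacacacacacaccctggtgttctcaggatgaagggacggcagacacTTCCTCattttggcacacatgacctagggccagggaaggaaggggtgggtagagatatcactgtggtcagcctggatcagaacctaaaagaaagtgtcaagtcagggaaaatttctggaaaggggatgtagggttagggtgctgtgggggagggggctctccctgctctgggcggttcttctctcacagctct

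In the S100a8 window 1 of 2 PU.1 cores directly adjoined the TATA box, which began 30 bases before the start. The S100a9 window held 1 match to the C/EBP form and the Ngp window held 2, while the C1qb and C1qc windows held 1 PU.1 core each. Among members 30 were matched by symbol to the promoter table. GAGGAA occurred in the windows of 18 of these 30, or 60.0%, and in 25.9% of all 27025 genes of the table. TTGCNNAA occurred in 4 of the 30, or 13.3%, beside 10.8% of all genes, and TATAAA in 2 of the 30, or 6.7%, beside 8.9%. A match of letters is a description of the sequence and not evidence of binding.

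Other members followed the calprotectin pair across the pools. Cd52 read 7.20, 8.10 and 7.04 in the knockout-labelled arrays, against 7.19, 7.15 and 8.12 in the wildtype arrays. Cd14 read 7.61, 7.90 and 7.32 in the knockout-labelled arrays, against 7.21, 7.51 and 8.12 in the wildtype arrays. Knockout-labelled replicate 2 and wildtype replicate 3 were the highest arrays for both, as they were for Cd53, Tyrobp, Adgre1 and Trem2. With S100a8 and S100a9 these made 8 of 36 members, and the same pair of arrays was highest in 10.1% of all clusters. This pattern was picked after the values were seen and was not tested. It goes by rank alone, and for Trem2 knockout-labelled replicate 3 at 6.91 was nearly as high as replicate 2 at 6.94. Wildtype replicate 3 alone was the highest array for 15 members, beside 30.1% of all clusters, and wildtype replicate 2 the lowest for 14, beside 12.4%.

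The macrophage and pan-leukocyte members were mixed in this respect. Those 2 pools were the highest for 6 of these 30 members, among them the macrophage markers Adgre1, Cd14 and Trem2, but not for the other 24, and C1qc was at its lowest in knockout-labelled replicate 2. The mean over the 30 macrophage and pan-leukocyte members was 7.29, 7.40 and 7.40 in the knockout-labelled arrays, against 7.41, 7.25 and 7.48 in the wildtype arrays. The mean over the 6 neutrophil members was 6.62, 6.99 and 6.62 in the knockout-labelled arrays, against 6.65, 6.78 and 7.25 in the wildtype arrays. The genotypes overlapped for both means. The neutrophil mean holds S100a8 and S100a9 themselves, and the mean over the other 4 members was 5.64, 5.61 and 5.60 in the knockout-labelled arrays, against 5.72, 5.82 and 5.91 in the wildtype arrays, a mean added after the values were seen. Wildtype replicate 3 was still the highest array there. For this mean the genotypes did not overlap, since every knockout-labelled array, replicate 2 included, lay below every wildtype array, with a mean difference of -0.19.

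**Figure D3:**
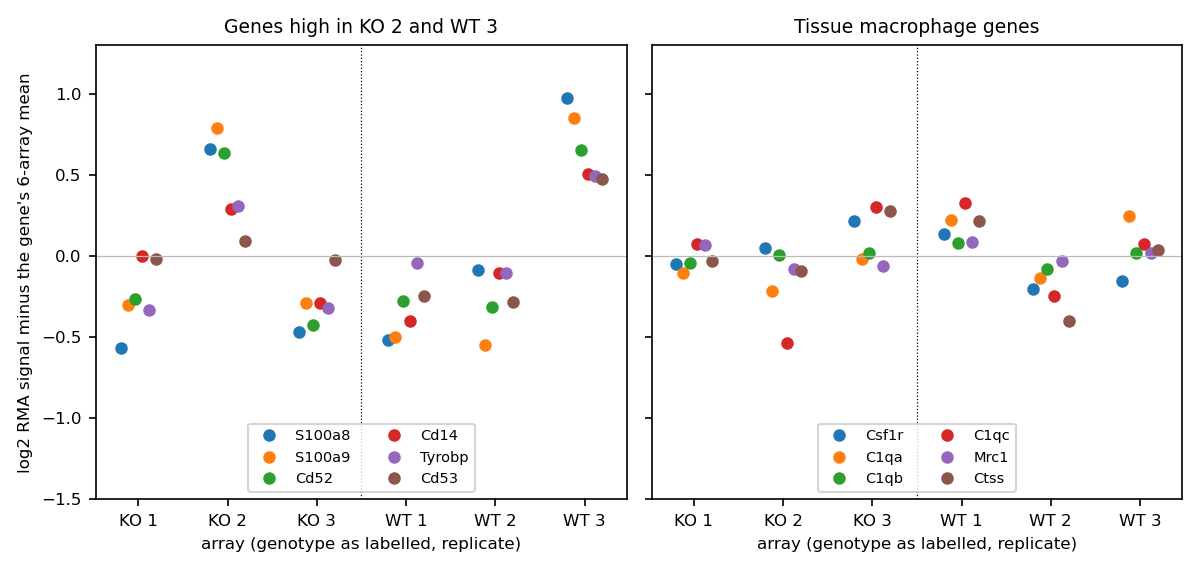
Log2 RMA signal of 12 genes minus each gene's mean over the 6 arrays, by array, with the knockout-labelled arrays (KO) left of the wildtype arrays (WT). S100a8, S100a9, Cd52, Cd14, Tyrobp and Cd53 are highest in KO 2 and WT 3, while the macrophage genes on the right, picked after their values were seen, do not have this order. Adgre1 and Trem2, not drawn, do have it.

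Further markers of neutrophils behaved differently from calprotectin. Of 10 measured genes in a second neutrophil list 0 passed in either direction (limma, 0 at an unadjusted p under 0.05), and the median difference was -0.06. Those with the smallest p were Padi4, which modifies histones in neutrophils, at -0.22 and the granule protease Ctsg at 0.10. Mmp8, the neutrophil collagenase, read 6.19, 6.67 and 6.00 in the knockout-labelled arrays and 5.98, 6.11 and 6.59 in the wildtype arrays, and was thus high in the same 2 pools. It was the only gene of that list for which those were the 2 highest arrays. Ltf, a granule protein that glands also secrete, read 10.34, 9.53 and 10.62 in the knockout-labelled arrays and 10.96, 9.63 and 9.82 in the wildtype arrays, with no such rise.

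Among 17 further markers of tissue macrophages 0 passed in either direction (limma), and the median difference was -0.02. At an unadjusted p under 0.05 (limma), 2 were higher and 0 lower, beside 1.81% and 8.33% of all clusters. The 2 with the smallest p are markers of microglia, the macrophages of the brain. Tmem119, which osteoblasts make as well, read 7.63, 8.09 and 7.62 in the knockout-labelled arrays and 7.46, 7.32 and 7.26 in the wildtype arrays. P2ry12, a nucleotide receptor, read 5.41, 5.28 and 5.53 in the knockout-labelled arrays and 5.11, 5.11 and 5.20 in the wildtype arrays. Both were higher in all 3 knockout-labelled arrays than in any wildtype array, by 0.43 and 0.26, and neither passed (limma adjusted p = 0.346 and 0.366). P2ry12 was also dim, with a mean signal below the 25th percentile of the tested clusters. Other microglial genes of the list went both ways. Siglech was at -0.30, Gpr34 at -0.14 and Sall1 at -0.04, while P2ry13 was at 0.19 and Fcrls at 0.07. P2ry13, too, was higher in every knockout-labelled array than in any wildtype array. That made 3 of the 17 markers, beside 3.51% of all clusters, while F13a1 was lower in every one, at -0.20.

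Markers of osteoclasts, the bone-resorbing cells that form by fusion of macrophage precursors, held the only gene called higher in the lists described here. Of 11 measured osteoclast markers 1 rose and 0 fell (limma), beside 0.144% higher and 1.90% lower among all clusters. A positive difference was found for 10 of the 11, while 61.6% of all clusters had a negative one, and the median was 0.21. Dcstamp, a membrane protein required for the fusion of osteoclast precursors, read 5.44, 5.26 and 5.51 in the knockout-labelled arrays, against 4.91, 4.80 and 4.87 in the wildtype arrays. The groups lay well apart, with a difference of 0.54 (SE 0.10; limma adjusted p = 0.0424). That call was lost without any 1 of the 6 arrays, with limma's adjusted p between 0.0532 and 0.173. Dcstamp was also dim, with a mean signal below the 25th percentile of the tested clusters.

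Both classical osteoclast enzymes were also separated by genotype but did not pass. Acp5, the tartrate-resistant acid phosphatase, read 8.64, 9.06 and 8.64 in the knockout-labelled arrays and 8.25, 7.74 and 7.97 in the wildtype arrays, a difference of 0.79 (SE 0.17; limma adjusted p = 0.0879). Ctsk, the protease that digests bone collagen, read 10.34, 10.80 and 10.32 in the knockout-labelled arrays and 9.72, 9.66 and 9.95 in the wildtype arrays, a difference of 0.71 (SE 0.15; limma adjusted p = 0.0902). In all, 6 of the 11 markers were higher in every knockout-labelled array than in any wildtype array, beside 3.51% of all clusters. At an unadjusted p under 0.05 (limma) 5 were higher, beside 1.81% of all clusters. The receptor Tnfrsf11a at 0.02, the transcription factor Nfatc1 at 0.06 and the receptor Oscar at -0.04 did not follow. Acp5 and Ctsk were singled out after their values were seen.

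Markers of bone itself were also higher in the knockout-labelled arrays. The mean over the 11 osteoclast markers was 7.09, 7.32 and 7.17 in the knockout-labelled arrays, against 6.94, 6.78 and 6.84 in the wildtype arrays. The mean over 8 bone and cartilage markers was 8.65, 8.83 and 8.70 in the knockout-labelled arrays, against 8.06, 8.37 and 8.07 in the wildtype arrays. Within the wildtype arrays the order differed, since replicate 2 was lowest for the osteoclast and highest for the bone and cartilage markers. Of those 8 bone and cartilage markers all had a positive difference, while 61.6% of all clusters had a negative one. Their median was 0.49, and 0 passed (limma), with Phex at 0.93 and Sp7 at 0.59. At an unadjusted p under 0.05 (limma) 6 were higher, beside 1.81% of all clusters. For 5 of the 8 every knockout-labelled array was above every wildtype array, beside 3.51% of all clusters. Skeletal muscle markers, 4 measured, averaged 7.13, 8.28 and 8.07 in the knockout-labelled arrays, against 6.81, 7.38 and 7.50 in the wildtype arrays, with a median of 0.55, Ckm at 0.53, Tnni2 at 0.82 and 0 that passed (limma, 0 at an unadjusted p under 0.05). Spi1, Csf1r and Cd68 are also active in the osteoclast lineage, and the part of bone in the values of these members was not tested.

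**Figure D4:**
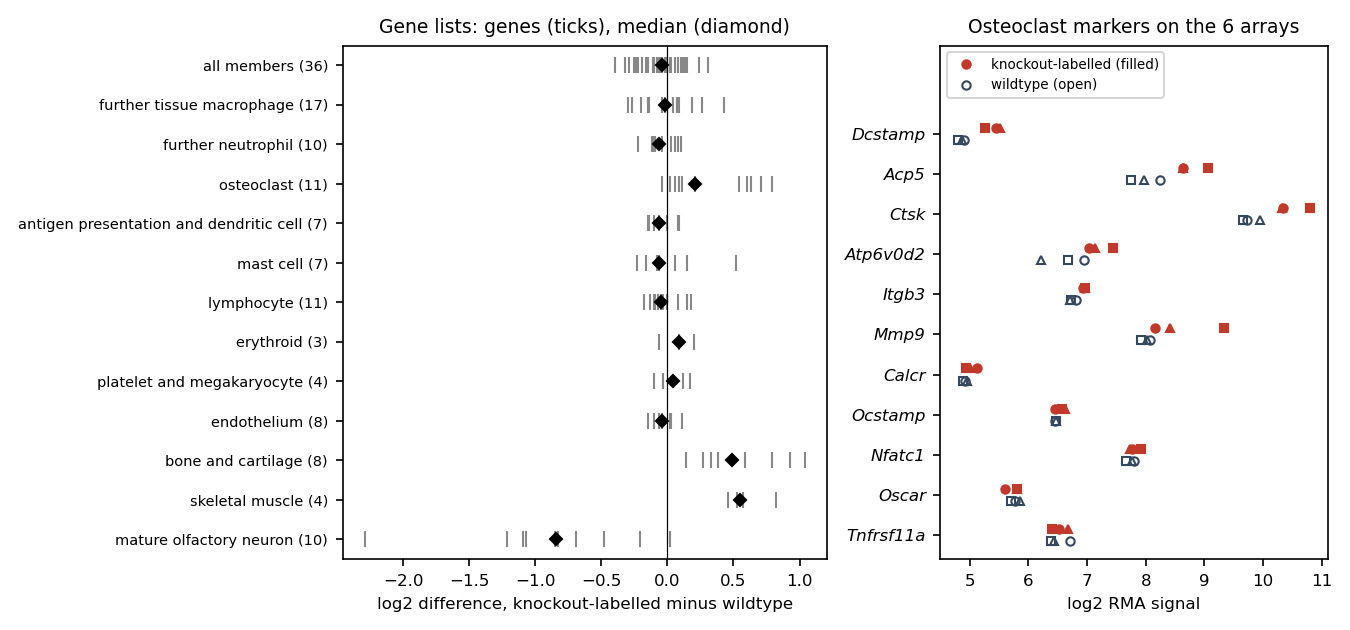
Left, log2 differences (knockout-labelled minus wildtype) of the members and of 12 marker lists, with a tick for each gene and a diamond for the median, and the number of measured genes in brackets. Right, log2 RMA signal of 11 osteoclast markers, with filled red symbols for the 3 knockout-labelled arrays above open symbols for the 3 wildtype arrays. The members centre near 0, the osteoclast list has a median of 0.21 and bone and cartilage one of 0.49.

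Other cell types that the dissection could hold were followed in the same way. Markers of mature olfactory neurons averaged 8.56, 8.81 and 8.47 in the knockout-labelled arrays, against 9.53, 9.24 and 9.68 in the wildtype arrays. Of those 10 markers 4 fell, among them S100a5 at -2.29, Ano2 at -1.21 and Umodl1 at -1.07 (limma adjusted p = 0.00983, 0.0145 and 0.0169), and 0 rose. Among all tested clusters 1.90% fell and 0.144% rose. When single arrays were omitted, Ano2 lost its call in 3 of 6 cases (highest limma adjusted p = 0.0716) and Umodl1 in 5 (highest 0.0787), in both genes most without knockout-labelled replicate 3, and S100a5 in 0. Umodl1 also lost its call over all probe sets of the table (limma adjusted p = 0.0525). The phagocyte members, at a median of -0.04, thus had no matching difference beside the lower neuronal markers, and the difference between the lists was not tested.

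Blood and vessel markers were close between genotypes. No gene passed (limma) in the lists of mast cells (7 measured), lymphocytes (11), antigen presentation and dendritic cells (7), erythroid cells (3), platelets and megakaryocytes (4) and endothelium (8), and their medians lay between -0.06 and 0.09. Only 1 gene, Cpa3, had an unadjusted p under 0.05 (limma), and it was higher, beside 1.81% of all clusters. The mast cell protease Cpa3 read 6.77, 6.91 and 7.03 in the knockout-labelled arrays and 6.65, 6.28 and 6.21 in the wildtype arrays, a difference of 0.52 (SE 0.14; limma adjusted p = 0.185), and the mast cell growth factor receptor Kit differed by 0.15. Of the 7 mast cell genes 4 had a negative difference, and the median of that list was -0.06. Alas2, the haem enzyme of red cell precursors, read 9.82, 10.48 and 9.57 in the knockout-labelled arrays and 9.25, 10.04 and 9.98 in the wildtype arrays. Its highest array was also the one with high calprotectin in the knockout-labelled group, but wildtype replicate 2 was above wildtype replicate 3. Slc4a1, of the same list, read 6.91, 7.18 and 6.57 in the knockout-labelled arrays and 6.46, 7.16 and 7.23 in the wildtype arrays. Its 2 highest arrays were those with high calprotectin, with wildtype replicate 2 close below them. Epor was highest in knockout-labelled replicate 1. The part of retained blood in the calprotectin values was not tested. The other genes with the smallest p in these lists were Epor at 0.09, Cd4 at -0.18, Cd79a at 0.15, Zbtb46 at -0.10, Cd209a at -0.14, Gp9 at 0.17, Treml1 at 0.12, Esam at -0.15 and Cdh5 at 0.11.

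Genes that act with the members in phagocyte pathways gave 0 calls in either direction in each of 8 lists (limma). In phagocyte signalling 23 genes had a median of 0.02 and 0 had an unadjusted p under 0.05. Ptpn6, a phosphatase that restrains immunoreceptors, was at -0.23 and the scavenger receptor Msr1 at -0.39. In the phagocyte oxidase list 5 genes had a median of 0.00. At an unadjusted p under 0.05 (limma) 1 was lower, Cyba, the partner subunit of Cybb, beside 8.33% of all clusters. Cyba read 8.71, 8.94 and 8.97 in the knockout-labelled arrays and 9.05, 9.24 and 9.23 in the wildtype arrays, a difference of -0.30 (limma adjusted p = 0.370), while the proton channel Hvcn1 was at 0.16. The 12 lysosomal genes had a median of -0.01, with Lgmn at -0.21 and Psap at -0.12, and 5 further complement genes a median of 0.00, with C1ra at -0.14 and C2 at -0.03. In both of these lists 0 genes had an unadjusted p under 0.05.

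Signals that recruit or sustain phagocytes showed small differences. Of 6 growth factor genes, with a median of -0.04, 2 were lower at an unadjusted p under 0.05 (limma), beside 8.33% of all clusters. These were Flt3l, a ligand that supports dendritic cells, and Csf3, the growth factor of neutrophils. Flt3l read 8.69, 8.31 and 8.42 in the knockout-labelled arrays and 9.06, 8.79 and 8.85 in the wildtype arrays, a difference of -0.43 (limma adjusted p = 0.259). Csf3 read 6.15, 6.32 and 6.38 in the knockout-labelled arrays and 6.76, 6.51 and 6.52 in the wildtype arrays, a difference of -0.31 (limma adjusted p = 0.352). Both were lower in every knockout-labelled array than in any wildtype array, while Csf1, the macrophage growth factor, was higher in every one, with 7.05, 7.05 and 7.17 against 7.02, 6.76 and 6.87 in the wildtype arrays (0.20; limma adjusted p = 0.576). Counting either direction, the genotypes did not overlap for these 3 of the 6 genes, beside 15.5% of all clusters. Csf1 was singled out after its values were seen. Among 19 chemokine ligands, with a median of 0.00, 1 was lower at an unadjusted p under 0.05 (limma), beside 8.33% of all clusters. This was Ccl25 at -0.30, and the platelet chemokine Pf4 was at -0.38. The 7 chemokine receptors had a median of -0.10, with Ccr3 at -0.42 and Cxcr4 at -0.09, and the 11 inflammatory cytokines and enzymes one of 0.02, with Tnf at -0.25 and Ifng at -0.23. In those lists 0 genes had an unadjusted p under 0.05.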

How the data were processed

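RNA of dissected olfactory epithelium was hybridised to 6 Affymetrix Mouse Exon arrays, 3 per genotype, each with a pool of 3 animals, per the labels. The deposited values are log2 RMA signals that the authors made with Affymetrix Expression Console, as the submitters' processing notes state. Neither its version nor a genome build is given in the sources used here. Quantile normalization within RMA assumes that most clusters do not change, and a cluster value hides changes of single exons.

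Of 23238 probe sets, the 16661 in the range of the platform annotation were tested: 14945 name 1 gene, 983 several and 733 none. Where a gene had more than 1 cluster, the brightest was used. Arrays correlated at 0.975 to 0.991 in pairs, shared at most 9 identical values per pair, and had medians of 7.64 to 7.73. The number of arrays limits the precision.

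Differences (knockout minus wildtype) were fitted by the lmFit and eBayes functions of limma 3.58.1 under R 4.3.3, as two-sided tests. P-values were adjusted by the Benjamini-Hochberg method over all tested clusters, with a threshold of 0.05. On simulated data of 16661 genes the fit recovered 44% of 1.5-fold and 72% of 2-fold changes and made 8 false calls. The simulation took each cluster's measured spread as its true one and also held 4-fold and 8-fold changes. Its shares need not hold for the members. Plots were drawn with matplotlib 3.10.9. Named are all measured members and, in each of 21 further lists, up to 3 called genes with the smallest p or, with none called, the 2 with the smallest p. The other genes given with values were picked after their values were seen. Members and lists were chosen with earlier results of these data known. Tried as alternatives were 2 other scalings, the removal of dim clusters, all probe sets, an intensity trend, robust estimation, weights for arrays, a replicate block, the omission of each array, averaged clusters and a Y-linked covariate. The check given in the closing section gave no sign that replicate numbers pair the arrays.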

Additional observations from a re-analysis of the deposited data

How the results depend on the processing

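Under all 16 alternatives 0 members were called lower and 0 higher, with the smallest adjusted p of any member per setting between 0.164 and 0.537 (limma). Leaving out 1 array at a time, the median of the macrophage and pan-leukocyte members ran from -0.07 to 0.05 and that of the neutrophil members from -0.22 to 0.00, all within the spread between arrays. The sign of the difference turned under at least 1 alternative for 20 of the 36 members, none of which had a difference beyond 0.25 in either direction. With the replicate block the median stayed at -0.01 for the macrophage and pan-leukocyte members and at -0.15 for the neutrophil members. Deviations of same-numbered arrays correlated at 0.01, 0.05 and -0.17, which gave no sign that the numbers pair the arrays. With 3 arrays per genotype this check cannot exclude pairing. The block lowered the count over all clusters to 168 lower and 16 higher, against 316 and 24 without it. The count of osteoclast markers called higher, followed after the data were seen, was 1 in the main setting. It was 0 with the Y-linked covariate, over all probe sets, with an intensity trend and with the replicate block, and 0 to 0 with each array left out. It was also 0 above the 25th percentile of the mean, where 8 of the 11 markers were tested and Dcstamp, being below that level, was not. The replicate block also ended the calls of the neuronal genes S100a5, Ano2 and Umodl1 (limma adjusted p = 0.0607, 0.0668 and 0.0803). Over all clusters, the count of lower calls fell to between 145 and 224 with 1 array left out. The number of arrays, 3 per genotype, limits the precision of every value.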
